A study of Mus musculus with 27 samples.

Results

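The Mage genes are a family of mostly X-linked genes that share a conserved MAGE homology domain, and 8 of the 24065 genes in the count table are described here in whole mouse embryos at embryonic day (E) 8.5. The genes were chosen by their names: Mageb4, Mageb16 and Mageb18 stand for the type I class, whose expression is known mainly from the germline, and Maged1, Maged2, Magee1, Magee2 and Mageh1 stand for the type II class, which is known from many tissues. Each gene was compared between 3 wild-type (WT) embryos and 3 Dnmt3b-/- littermates of the C57BL/6J strain, with 1 RNA-Seq library for each embryo and no treatment. The Dnmt3b-/- embryos were homozygous for a catalytically inactive allele of Dnmt3b, which encodes a de novo DNA methyltransferase. The allele came from a conditional Dnmt3b allele (2lox) recombined with a ubiquitous ACTB-Cre deleter, so every tissue of the embryo carries it, and the embryos came from crosses of heterozygous parents.

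MAGE proteins bind E3 ubiquitin ligases of the RING type through the MAGE homology domain and alter which substrates these ligases modify. Type I genes (Magea, Mageb and Magec) are also known as cancer-testis genes, since they are active in germ cells, silent in most somatic tissues and often switched on in tumours, and DNA methylation of their promoters is a known part of that silencing. Type II genes (among them Maged, Magee, Mageh, Ndn, Magel2 and Tro) are expressed in somatic tissues, the nervous system included, and act in cell death, differentiation and membrane trafficking. The comparison asks how both classes are expressed in an embryo that lacks DNMT3B activity.

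The libraries held 41489332 to 58470286 counts on genes. The Dnmt3b count adds all its exons, those outside the inactivated part too, so it is a partial check of genotype. Dnmt3b stood at 7263, 13956 and 6280 normalized counts in WT embryos 1, 2 and 3 and at 4063, 4541 and 4740 in Dnmt3b-/- embryos 1, 2 and 3, and the groups did not overlap. Dnmt3b was lower in Dnmt3b-/- embryos by a log2 fold change of -1.04 ± 0.27 (SE, edgeR's quasi-likelihood test, Benjamini-Hochberg adjusted p = 0.0169). Without WT embryo 2, the highest, Dnmt3b did not combine an adjusted p below 0.05 with a fold change above 2 (edgeR). The trend of each library on GC content and length was also removed. Of the 3 tested DNA methyltransferase genes (Dnmt3b, Dnmt3a and Dnmt1), 0 were then lower and 1 higher at an adjusted p below 0.05 (edgeR). The lower Dnmt3b count thus did not pass with this correction. Markers of neural tissue, somites, heart, primitive erythroid cells and gut were detected in all embryos. Some of them differed between the genotypes at an adjusted p below 0.05 (edgeR): 4 of 4 neural markers, of which Sox1 and Pax6 were higher in Dnmt3b-/- embryos and Sox2 and Sox3 lower, 1 of 4 somite markers (Tcf15, higher) and 2 of 3 cardiac markers (Tnnt2 higher, Nkx2-5 lower), with log2 fold changes from -0.79 for Nkx2-5 to 1.14 for Tcf15. In contrast, the trophoblast genes Prl3d1 and Tpbpa and the decidual gene Prl8a2 had 0 counts in each. WT embryo 2 stood apart, with the highest Apob (a yolk sac endoderm gene) at 87330 normalized counts where WT embryos 1 and 3 had 27020 and 8085, and with the pluripotency gene Pou5f1, chosen after its values were seen, at 837 against 71.1 and 68.8. The sex of these embryos is not labelled. Xist, the RNA of the inactive X chromosome, reached 14670 and 13449 normalized counts in WT embryos 1 and 3 and 21847 in Dnmt3b-/- embryo 2, and lay between 3.39 and 11.0 in the other 3, which were the embryos with 1948 or more normalized counts for each of 4 Y-linked genes. All 8 Mage genes lie on the X chromosome.

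The promoters of both classes are shown first, because CpG dinucleotides are the sites that DNMT3B methylates. Sequences and starts are those of RefSeq on GRCm38.p6 (mm10), and all 8 genes were matched. Each promoter was measured over 300 bases, 250 before the annotated transcription start and 50 from the start on. The 250 bases before the start are printed 5′ to 3′ on the strand of the gene, with each CpG in capitals. The 3 type I promoters, all on the minus strand, were Mageb4 at chrX:86256220-86256469, Mageb16 at chrX:79671436-79671685 and Mageb18 at chrX:92599573-92599822.
Mageb4: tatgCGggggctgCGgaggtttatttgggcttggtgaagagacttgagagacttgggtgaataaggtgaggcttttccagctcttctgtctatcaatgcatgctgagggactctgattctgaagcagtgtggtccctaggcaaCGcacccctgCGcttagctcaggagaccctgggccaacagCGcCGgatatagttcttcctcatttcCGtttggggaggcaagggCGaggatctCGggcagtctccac
Mageb16: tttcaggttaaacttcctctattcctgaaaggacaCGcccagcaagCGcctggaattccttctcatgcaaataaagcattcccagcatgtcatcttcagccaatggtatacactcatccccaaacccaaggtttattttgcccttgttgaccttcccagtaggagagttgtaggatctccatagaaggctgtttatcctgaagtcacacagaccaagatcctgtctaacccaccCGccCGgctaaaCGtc
Mageb18: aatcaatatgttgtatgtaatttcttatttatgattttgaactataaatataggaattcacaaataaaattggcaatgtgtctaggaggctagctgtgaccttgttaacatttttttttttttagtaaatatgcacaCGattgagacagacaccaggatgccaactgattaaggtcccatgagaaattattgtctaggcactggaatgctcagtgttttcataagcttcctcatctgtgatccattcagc

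The 3 type I promoters differed in CpG content. The Mageb4 window held 11 CpGs, an observed to expected ratio of 0.48 and a GC content of 56.7%, the Mageb16 window 6 CpGs, 0.34 and 49.7%, and the Mageb18 window 1 CpG, 0.11 and 34.3%. Over the 32851 promoter windows of 27025 genes the median was 7 CpGs (quartiles 3 and 20) and the median ratio 0.38. Thus 58.6% of all windows held fewer CpGs than that of Mageb4, 43.6% fewer than that of Mageb16 and 5.43% fewer than that of Mageb18.

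Of the type II genes, the promoters of Maged1 and Mageh1 are printed, since these 2 genes passed the test described below. Both are on the minus strand, Maged1 at chrX:94542026-94542275 and Mageh1 at chrX:153037564-153037813.
Maged1: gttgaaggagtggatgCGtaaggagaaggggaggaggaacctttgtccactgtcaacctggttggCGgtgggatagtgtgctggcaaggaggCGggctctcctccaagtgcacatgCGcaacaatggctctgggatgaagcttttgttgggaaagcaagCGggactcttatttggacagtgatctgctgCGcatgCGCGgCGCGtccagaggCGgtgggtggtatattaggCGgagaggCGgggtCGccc
Mageh1: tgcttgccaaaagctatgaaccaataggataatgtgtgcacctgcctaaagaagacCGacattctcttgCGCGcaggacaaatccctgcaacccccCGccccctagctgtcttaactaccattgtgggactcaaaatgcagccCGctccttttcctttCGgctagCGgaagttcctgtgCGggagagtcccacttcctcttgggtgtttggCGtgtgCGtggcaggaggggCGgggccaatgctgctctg

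The Maged1 window held 20 CpGs and that of Mageh1 18 CpGs, with observed to expected ratios of 0.81 and 0.71. Magee1 had 14 CpGs and Magee2 had 12. Maged2 has 4 annotated starts, with 8 and 9 CpGs at the 2 upstream ones and 19 at each of the 2 downstream ones, whose windows overlap. All type II genes thus had at least 1 window with more CpGs than any type I gene. Among 3 motifs searched on both strands, GCGGGA, the core of E2F sites, lay in the windows of Maged1 (92 bases before the start), Mageh1 (72), Magee2 (48) and Maged2 (4 before its second start), and in 20.0% of all windows. CCGGAA, the core of ETS sites, lay in the window of the second Maged2 start and in 14.9% of all windows. The E-box CACGTG was found in none of the 8 genes and in 7.15% of all windows. None of the type I windows held any of the 3 motifs.

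**Figure D1:**
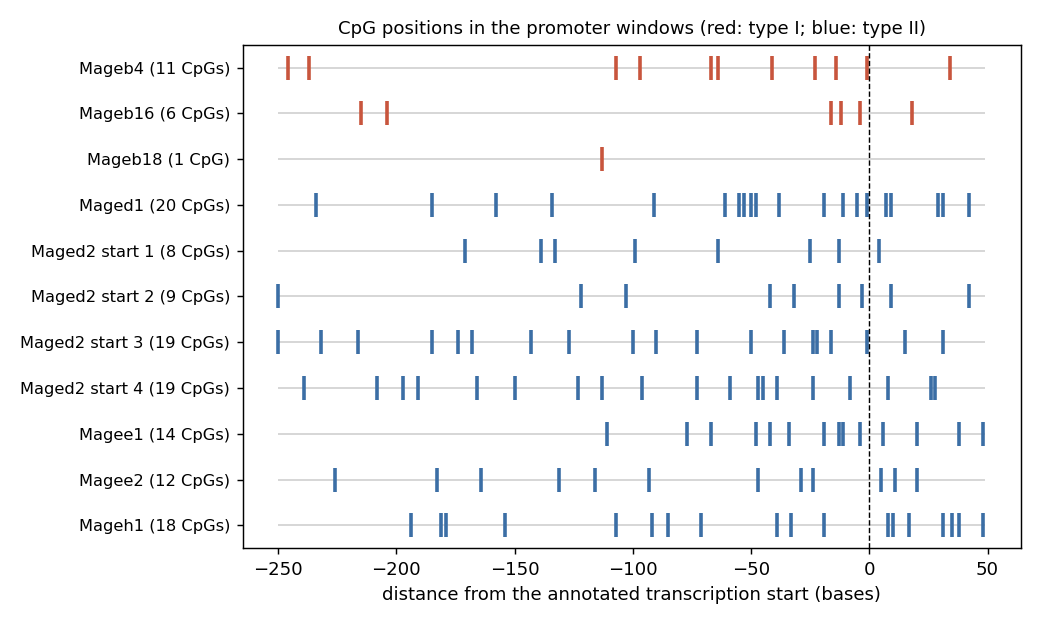
Each line is 1 promoter window, the horizontal axis gives the distance from the annotated transcription start in bases, and each tick is a CpG (red for type I genes, blue for type II genes). The windows of Mageb4, Mageb16 and Mageb18 hold 11, 6 and 1 CpGs, and those of Maged1 and Mageh1 hold 20 and 18.

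The levels of the genes were compared with each other as FPKM, computed from the counts, the RefSeq exon length and the scaled library size. Parts of Mageb4 and Mageb16 match pseudogenes (below), while the type II members share no window of 75 bases with another gene. The FPKM of Mageb4 and Mageb16 may thus be too low or too high. This depends on how reads with several matches were counted, which is not given in the sources used here. In WT embryos Maged1 stood at 156 ± 14.1 FPKM (SD, n = 3), Maged2 at 33.6 ± 6.42, Mageh1 at 11.4 ± 0.461, Magee1 at 2.45 ± 0.152, Mageb16 at 1.51 ± 1.60 and Magee2 at 0.857 ± 0.156. Mageb4 and Mageb18 had 0 counts in all 3 WT embryos. Most neighbours in this order did not overlap over the WT embryos, but Mageb16, between 0.381 and 3.34 FPKM, overlapped both Magee1 and Magee2. The class label therefore held for Mageb4 and Mageb18, which were not detected in WT embryos, and not for Mageb16, which was detected in each embryo at the level of the least abundant type II genes, although most of its sequence is shared with a pseudogene (below). In Dnmt3b-/- embryos the order of these genes was unchanged, with Maged1 at 113 ± 13.1 FPKM at the top, Mageb4 at 0.225 ± 0.169 between Magee2 and Mageb18, and Magee1 and Mageb16 again overlapping.

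**Figure D2:**
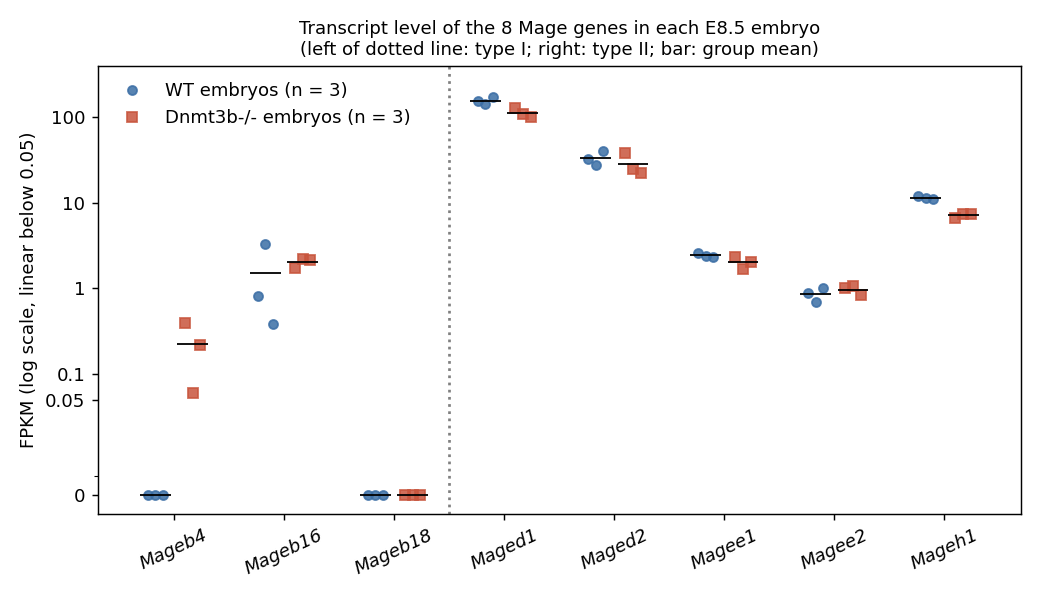
Transcript level in FPKM on a log scale (linear below 0.05) for the 8 Mage genes, with 1 point for each embryo (blue circles WT, red squares Dnmt3b-/-) and a bar at the mean of each group. The type II genes span 0.857 to 156 FPKM in the WT means, Mageb4 lies at 0 in the 3 WT embryos and between 0.0606 and 0.399 FPKM in the Dnmt3b-/- embryos, and Mageb18 lies at 0 in all 6.

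Mageb4 (chrX:86250256-86256219, minus strand, 2401 exonic bases) was the type I gene that passed the test. It had 0 counts in each WT embryo and 46, 6 and 22 counts in Dnmt3b-/- embryos 1, 2 and 3, which are 45.9, 6.98 and 24.9 normalized counts. All 3 Dnmt3b-/- embryos thus lay above all WT embryos, and the highest differed from the lowest more than the lowest did from 0. With the WT embryos set to the limit of 3 counts in 1 library (up to 3.43 normalized counts), the Dnmt3b-/- mean was at least 7.55-fold higher. It was at least 4.64-, 10.3- and 7.71-fold higher without Dnmt3b-/- embryo 1, 2 or 3. This bounds the WT side only, since the Dnmt3b-/- mean, 25.9 ± 19.5 normalized counts (SD, n = 3), was taken as exact. The adjusted p of Mageb4 was 0.00871 (edgeR's quasi-likelihood test, Benjamini-Hochberg). A call required a fold change above 2 together with an adjusted p below 0.05, and 2.12% of the 15114 tested genes were called higher; 25.3% of all tested genes had the 3 Dnmt3b-/- embryos above the 3 WT embryos. Mageb4 entered the test through the Dnmt3b-/- embryos alone, since its mean of 12.3 counts over the 6 embryos was just above the minimum of 10, and without Dnmt3b-/- embryo 1 it fell below this minimum. With no minimum and without that embryo its adjusted p was 0.0218 (edgeR).

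Even where detected, Mageb4 stayed below the type II genes. Its mean of 0.225 FPKM in Dnmt3b-/- embryos compares with 0.969 ± 0.119 for Magee2, the least abundant type II gene. The highest Dnmt3b-/- embryo for Mageb4 was at 0.399 FPKM, and the lowest for Magee2 at 0.833. Of the 2052 windows of 75 bases in its transcript, 50.93% were identical to a stretch of Mageb10-ps, a pseudogene at chrX:86299766-86305093 that is not listed in the table. A single read of 75 bases in this part cannot be told apart by sequence. The reads were sequenced in pairs, so a mate outside this part could place such a read. In bulk samples, a gene active in a few cells and a gene at a low level in many cells cannot be told apart. Of 7 genes that mark primordial germ cells, 5 were tested and 0 passed with edgeR, while 1 (Dppa3) had an unadjusted p below 0.05 and was called by DESeq2. Dppa3 stood at 7.11, 22.9 and 16.8 normalized counts in WT and at 34.0, 20.9 and 171.7 in Dnmt3b-/- embryos. The paper associates lower methylation of the Dppa3 promoter in these mutants with a modest rise of its transcripts. Prdm14 and Nanos3, which mark these cells more narrowly, did not exceed 13.6 normalized counts in any embryo and were at 0 in Dnmt3b-/- embryo 1 and Dnmt3b-/- embryo 3, respectively. Dnd1 was detected in every embryo, at 37.1, 43.5 and 23.8 normalized counts in WT and 24.0, 79.1 and 20.3 in Dnmt3b-/- embryos (edgeR adjusted p = 0.780). The summed level of the 7 genes was 2478 to 2692 normalized counts in WT and 2299 to 3192 in Dnmt3b-/- embryos, carried mostly by Kit, Prdm1 and Tfap2c. The part of germ cells in the Mageb4 counts was not tested.

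Mageb16 (chrX:79623231-79671435, minus strand) was expressed in both groups. It stood at 76.6, 317.0 and 36.2 normalized counts in WT embryos and at 163, 211 and 202 in Dnmt3b-/- embryos. The Dnmt3b-/- embryos lay close to each other, while the WT embryos spread on both sides of them, with WT embryo 2 the highest of all 6. The log2 fold change was 0.43 ± 0.66 (95% interval -1.07 to 1.94, adjusted p = 0.644 by edgeR), so a difference was not shown. The value rested on WT embryo 2, since with this embryo left out Mageb16 had a log2 fold change of 1.76 and was called (edgeR adjusted p = 0.00658), whereas without WT embryo 3 it was -0.03 (adjusted p = 0.974). WT embryo 2 was also the embryo that stood apart in Apob and Pou5f1. It was besides the only WT embryo with low Xist (4.58 normalized counts) and with Y-linked counts (Kdm5d at 2779). Without it, Xist and Y-linked counts also differed between the groups, so their part cannot be told apart from genotype in that fit. With the Xist level as a covariate and all 6 embryos, the log2 fold change of Mageb16 was 0.55 (edgeR adjusted p = 0.488). The part of these features in the Mageb16 value was not tested. Of the 1582 windows of 75 bases of Mageb16, 88.69% were shared with Mageb16-ps2, a pseudogene on chromosome 6 (60769519 to 60771180) that is not listed in the table.

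Mageb18 (chrX:92118879-92599572, minus strand) had 0 counts in all 6 embryos, and 3 counts, the limit for each library, correspond to 2.37 to 3.49 normalized counts. Its window was also the one with 1 CpG in the printed promoters. Among the 13 other type I genes in the table, 8 had 0 counts in every embryo (Magea1, Magea3, Magea6, Magea8, Magea10, Mageb1, Mageb2 and Mageb5). Magea4 and Magea5 had 4 and 9 counts in Dnmt3b-/- embryo 2 and 0 in the other embryos, and Magea2 had 1 count in Dnmt3b-/- embryo 1. The pseudogene Mageb16-ps1 had 2 to 9 counts in both groups. Mageb3, which unlike the others lies on chromosome 2 and shares 39.72% of its windows with other genes, most of them with Ctdspl2, had 17.6 to 25.3 normalized counts in WT and 6.98 to 40.7 in Dnmt3b-/- embryos (log2 fold change 0.06 ± 0.63, edgeR adjusted p = 0.947). Of the 16 type I genes in the table, Mageb16-ps1 included, 3 had enough counts to be tested, and a rise was called for 1 of these 3. Among all tested genes 2.12% were called higher, but the 1 gene, Mageb4, entered the test through the Dnmt3b-/- embryos alone. The number of type I genes called was 0 without Dnmt3b-/- embryo 1 or with a minimum mean of 50 counts, as Mageb4 was then not tested. It was 2 without WT embryo 2, the only WT embryo with low Xist, as Mageb16 was then called as well.

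**Figure D3:**
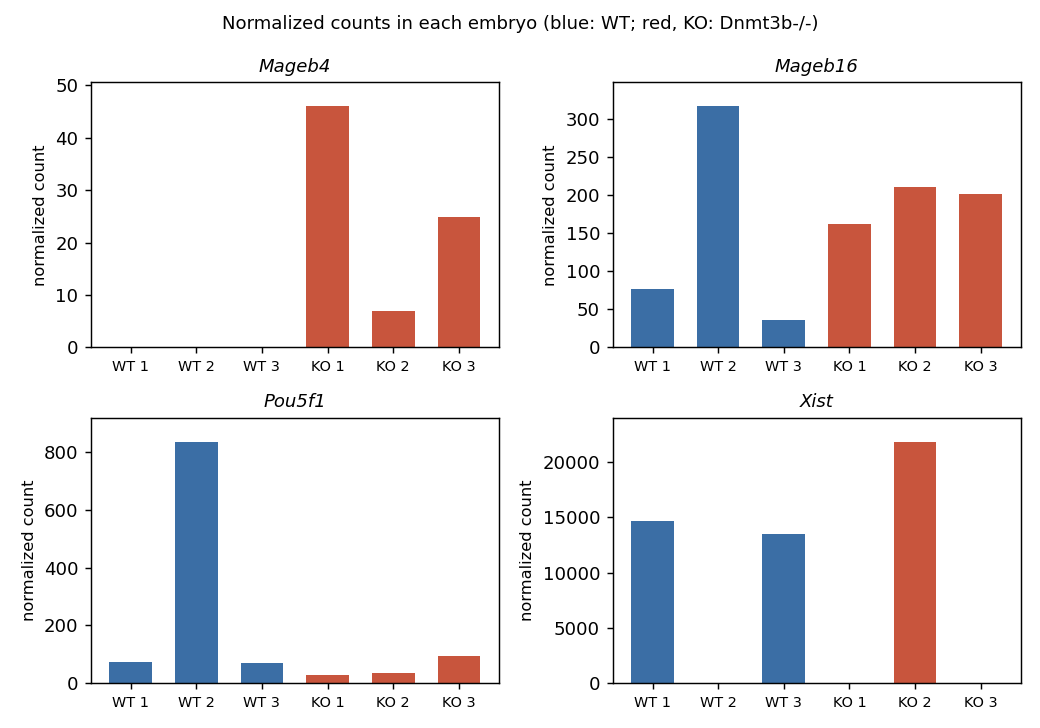
Normalized counts of Mageb4 and Mageb16 in each embryo, with Pou5f1 and Xist for reference (blue WT; red Dnmt3b-/-, marked KO; each bar is 1 embryo). Mageb4 is at 0 in the 3 WT embryos, and Mageb16 and Pou5f1 are both highest in WT embryo 2, at 317.0 and 837 normalized counts.

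No type II gene was higher in Dnmt3b-/- embryos at an adjusted p below 0.05. None of the 5 was called at a fold change above 2, where 5.9% of all tested genes were called in either direction; 2 of the 5 had an adjusted or unadjusted p below 0.05 by edgeR and by DESeq2, both lower in Dnmt3b-/- embryos, where 18.1% of all tested genes and 5.82% of the 584 tested X-linked genes were lower at this threshold. The median log2 fold change of the 5 genes was -0.27, with 1 of 5 positive. The median was -0.03 over all tested genes and 0.19 over the X-linked ones. The type II median was -0.10 with the GC and length trend removed, -0.49 without Dnmt3b-/- embryo 1 and -0.16 without Dnmt3b-/- embryo 2.

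Mageh1 (chrX:153036166-153037563, minus strand), a short member of the family whose product binds the neurotrophin receptor p75NTR, showed the larger of these decreases. It stood at 799, 768 and 737 normalized counts in WT embryos and at 448, 503 and 491 in Dnmt3b-/- embryos. The values were tight within each group and the groups lay well apart. Mageh1 fell by 0.68 ± 0.12 on the log2 scale (95% interval -0.94 to -0.41; edgeR adjusted p = 0.00311), to a fold of 0.626. The adjusted p was below 0.05 in 14 of 14 alternative settings, the highest being 0.0196. The gene 9530051G07Rik begins 65 bases away on the opposite strand, and at 16.2 ± 9.98 and 17.6 ± 10.6 normalized counts it was far less abundant and did not pass the test (edgeR adjusted p = 0.931).

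Maged1 (chrX:94535474-94542025, minus strand), also called NRAGE, is an adaptor of p75NTR signalling that binds the ubiquitin ligase PJA1 and the homeodomain proteins DLX5 and MSX2. It was the most abundant of the 8 genes, at 21546, 19984 and 23908 normalized counts in WT embryos and 17836, 15480 and 14231 in Dnmt3b-/- embryos. Every Dnmt3b-/- embryo lay below every WT embryo. Maged1 fell by 0.46 ± 0.10 on the log2 scale (95% interval -0.70 to -0.22; edgeR adjusted p = 0.00976), to a fold of 0.727. The direction and an adjusted p below 0.05 held in 14 of 14 alternative settings, with a highest adjusted p of 0.0497. With the trend of each library on GC content and length taken out, the log2 fold change of Maged1 was -0.28 (edgeR adjusted p = 0.049).

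Markers of neural tissue and heart also shifted between the groups, in both directions, and the somite marker Tcf15 was higher, as given above. With the GC and length trend removed, 1 marker of each tissue was higher and 0 lower at an adjusted p below 0.05 (edgeR). The part of these shifts in the lower Maged1 and Mageh1 was not tested.

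The other 3 type II genes did not pass the test. Magee1 (chrX:105120378-105123961, plus strand), whose product binds alpha-dystrobrevin, stood at 451, 407 and 404 normalized counts in WT and at 399, 293 and 352 in Dnmt3b-/- embryos. The groups did not overlap, as in 26.5% of all tested genes with lower values in Dnmt3b-/- embryos, but the nearest embryos differed by little, and the log2 fold change was -0.27 ± 0.16 (95% interval -0.64 to 0.10, edgeR adjusted p = 0.227). Maged2 (chrX:150806421-150814362, minus strand), which is required for salt transport in the fetal kidney, stood at 4204, 3655 and 5302 normalized counts in WT and at 4940, 3254 and 2919 in Dnmt3b-/- embryos. Dnmt3b-/- embryo 1 lay within the WT range and the other 2 below it. Maged2 had a log2 fold change of -0.24 ± 0.20 (95% interval -0.71 to 0.22, edgeR adjusted p = 0.388), which was -0.49 (adjusted p = 0.0411) without Dnmt3b-/- embryo 1 and 0.06 (adjusted p = 0.835) with the GC and length trend removed. Magee2 (chrX:104854952-104857267, minus strand) stood at 97.9, 76.7 and 111 normalized counts in WT and at 113, 117 and 92.6 in Dnmt3b-/- embryos. The groups overlapped, with a log2 fold change of 0.17 ± 0.26 (95% interval -0.42 to 0.77, edgeR adjusted p = 0.638).

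**Figure D4:**
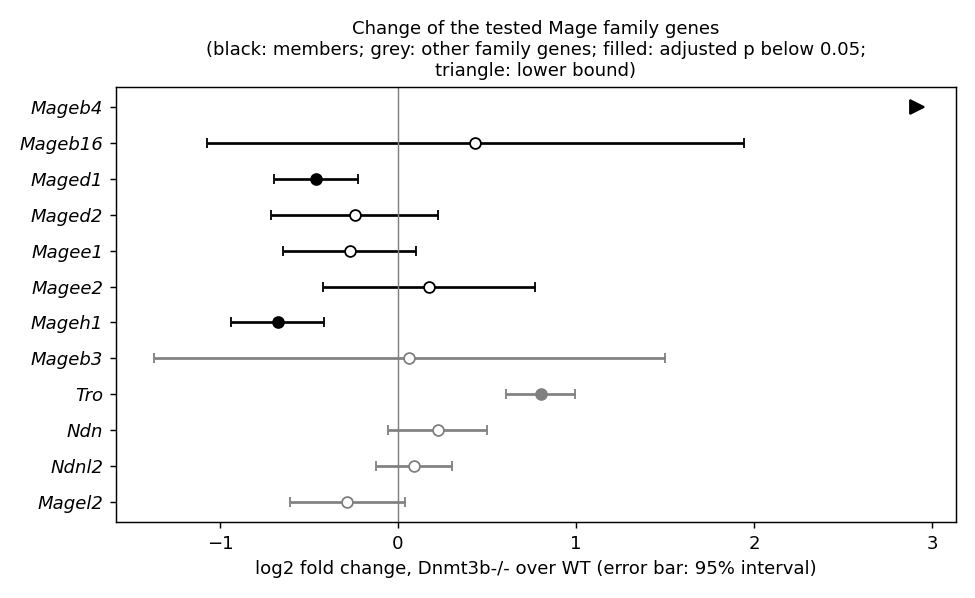
Log2 fold change (Dnmt3b-/- over WT) with its 95% interval for the tested Mage genes (black) and other family genes (grey). Filled symbols have an adjusted p below 0.05, and the triangle of Mageb4 is the lower bound computed with the WT embryos at the limit of 3 counts. Maged1 and Mageh1 lie below 0 at -0.46 and -0.68, and Tro lies above 0 at 0.80.

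None of the 4 other type II genes of the family in the table was lower at an adjusted p below 0.05, and 1 of them, Tro, was higher. Tro (chrX:150644710-150657583, minus strand), which encodes the adhesion molecule trophinin and is the next counted gene to Maged2 at 148.8 kb, stood at 5997, 5423 and 6188 normalized counts in WT and at 9639, 9944 and 11123 in Dnmt3b-/- embryos. All 3 Dnmt3b-/- embryos lay above the WT embryos by a wide margin. Tro rose by 0.80 ± 0.08 on the log2 scale (edgeR adjusted p = 0.00067), a fold of 1.74 that is below the fold change of 2 used for calls, in common with 17.6% of all tested genes and 27.1% of X-linked ones that were higher at an adjusted p below 0.05. The rise kept an adjusted p below 0.05 in 14 of 14 alternative settings. Ndn (necdin, a growth suppressor of neurons), Ndnl2 (a subunit of the SMC5/6 complex) and Magel2 (a partner of TRIM27 in endosomal sorting) lie outside the X chromosome and did not pass the test, with log2 fold changes of 0.22 ± 0.12, 0.09 ± 0.09 and -0.29 ± 0.14 and edgeR adjusted p of 0.187, 0.476 and 0.149. Ndn had an adjusted p of 0.0369 with the GC and length trend removed and of 0.0412 with the Xist level as a covariate (edgeR).

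Genes next to the Mage genes were examined in the annotation. Pbdc1, which ends 3.283 kb before Magee1 begins, stood at 6302 ± 856 normalized counts in WT and 13888 ± 4057 in Dnmt3b-/- embryos (log2 fold change 1.14 ± 0.21, edgeR adjusted p = 0.00432), while Magee1 itself did not pass. Usp51, at 24.8 kb from Mageh1, and Gspt2, at 94.0 kb from Maged1, were both 0.63 higher on the log2 scale (edgeR adjusted p = 0.0323 and 0.00818), beside Mage genes that fell, where 27.1% of the tested X-linked genes were higher. Tmem47, the next counted gene to Mageb16 on its right at 1399 kb, rose by 0.90 ± 0.19 (edgeR adjusted p = 0.00794). Next to Mageb4, Nr0b1 at 54.3 kb stood at 2.32 ± 1.05 normalized counts in WT and 9.22 ± 9.31 in Dnmt3b-/- embryos and was too low to be tested. Neighbours of Mageb18 had 0 counts. The other tested neighbours did not pass, with edgeR adjusted p of 0.452 for Gm7173 (Mageb16), 0.894 for Gm14827 (Maged1), 0.830 for Gnl3l (Maged2), 0.890 for 5530601H04Rik (Magee2) and 0.587 for Pfkfb1 (Tro).

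The genes most like Mageb4 over the 6 embryos were Rhox4g, 4930447C04Rik, Zfp711, Dgcr8 and Mbd5, with Pearson's r of 0.992, 0.991, 0.990, 0.989 and 0.989 on log2(normalized count + 1). Rhox4g, a homeobox gene of the X-linked Rhox cluster, stood at 0.79 to 2.29 normalized counts in WT embryos and at 188, 38.4 and 114 in Dnmt3b-/- embryos 1, 2 and 3, the same order as Mageb4. The other 4 genes were expressed in all embryos, such as Dgcr8, a subunit of the microRNA processing complex, at 4233 to 4406 normalized counts in WT and 5217 to 5707 in Dnmt3b-/- embryos. The values are a description over embryos of 2 groups, and 716 of 15113 genes had an r above 0.9.

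Since MAGE proteins act through ubiquitin ligases and other partners, 28 genes of such partners were examined, of which 26 were in the table and 25 were tested. At an adjusted p below 0.05, 8 were higher and 5 lower in Dnmt3b-/- embryos (edgeR, against 17.6% and 18.1% of all tested genes), with a median log2 fold change of 0.20 against -0.03. None was called at a fold change above 2 by edgeR without correction, with 16 at an unadjusted p below 0.05, and DESeq2 called 1, Dlx5. The higher genes included 4 subunits of the SMC5/6 complex, which repairs DNA and contains the MAGE protein encoded by Ndnl2. Smc6 stood at 13483 ± 1257 normalized counts in WT and 23274 ± 4325 in Dnmt3b-/- embryos (log2 fold change 0.79 ± 0.13, edgeR adjusted p = 0.00302), and Nsmce2, a SUMO ligase, at 2735 ± 145 and 4763 ± 300.2 (0.80 ± 0.08, edgeR adjusted p = 0.000509). Smc5 and Nsmce4a were higher by 0.58 and 0.39, whereas Nsmce1, the RING subunit that binds the MAGE protein, was lower at 1515 ± 160 against 1128 ± 163 (-0.43 ± 0.14, edgeR adjusted p = 0.0389). The adjusted p of Nsmce1 was not below 0.05 without Dnmt3b-/- embryo 1 or 3 or WT embryo 1 or 3, at up to 0.119 (edgeR). The remaining higher genes were Usp7, Ube2d2a, Prpf19 and Rpgrip1l, by 0.29 to 0.55. Usp7 lost its adjusted p below 0.05 without Dnmt3b-/- embryo 2 or 3 or WT embryo 1 or 3 (edgeR, up to 0.0704). Ube2d2a lost it without Dnmt3b-/- embryo 2 or 3 or WT embryo 3 (up to 0.075). Prpf19 lost it without Dnmt3b-/- embryo 2 or any WT embryo (up to 0.0942). Rpgrip1l kept it with each embryo left out. With the GC and length trend removed, Usp7, Ube2d2a and Rpgrip1l did not pass (edgeR adjusted p = 0.101, 0.0912 and 0.261).

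Among the ligases and receptors tied to the 8 genes was Pja1, the partner of MAGED1. It was lower by a log2 fold change of -0.21 ± 0.07 (edgeR adjusted p = 0.0486). Its adjusted p was not below 0.05 with any of the 6 embryos left out (edgeR, from 0.063 to 0.164). It was below 0.05 in 3 of 14 alternative settings. Trim28, the ligase bound by type I proteins, stood at 46385 ± 1227 normalized counts in WT and 35337 ± 1930 in Dnmt3b-/- embryos (-0.39 ± 0.07, edgeR adjusted p = 0.00334). Dcaf12, a substrate receptor that recognises type I proteins, and Rnf126 were also lower, with log2 fold changes of -0.43 and -0.41. Rnf126 did not pass without Dnmt3b-/- embryo 2 (edgeR adjusted p = 0.0538) or WT embryo 1 (0.0602). With the GC and length trend removed, its log2 fold change was -0.10 (edgeR adjusted p = 0.537). Trim27, Ngfr (which encodes p75NTR), Msx2 and Dlx5 did not pass, with log2 fold changes of -0.21, -0.34, 0.40 and 1.06 (edgeR adjusted p = 0.0939, 0.158, 0.138 and 0.0532). These values moved with base composition: with the GC and length trend removed, 6 partner genes were higher and 2 lower (against 12.6% and 10.7% of all genes tested this way), Gnas rose by 0.82 (adjusted p = 0.00153, from 0.20 without the correction) and Dlx5 was called higher at 1.51 (adjusted p = 0.0311), Trim28 was at 0.20 (adjusted p = 0.0723) and Smc5 at 0.10 (adjusted p = 0.445), while Smc6, Nsmce2, Nsmce4a, Prpf19, Nsmce1 and Dcaf12 kept their direction with an adjusted p below 0.05 by edgeR.

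**Figure D5:**
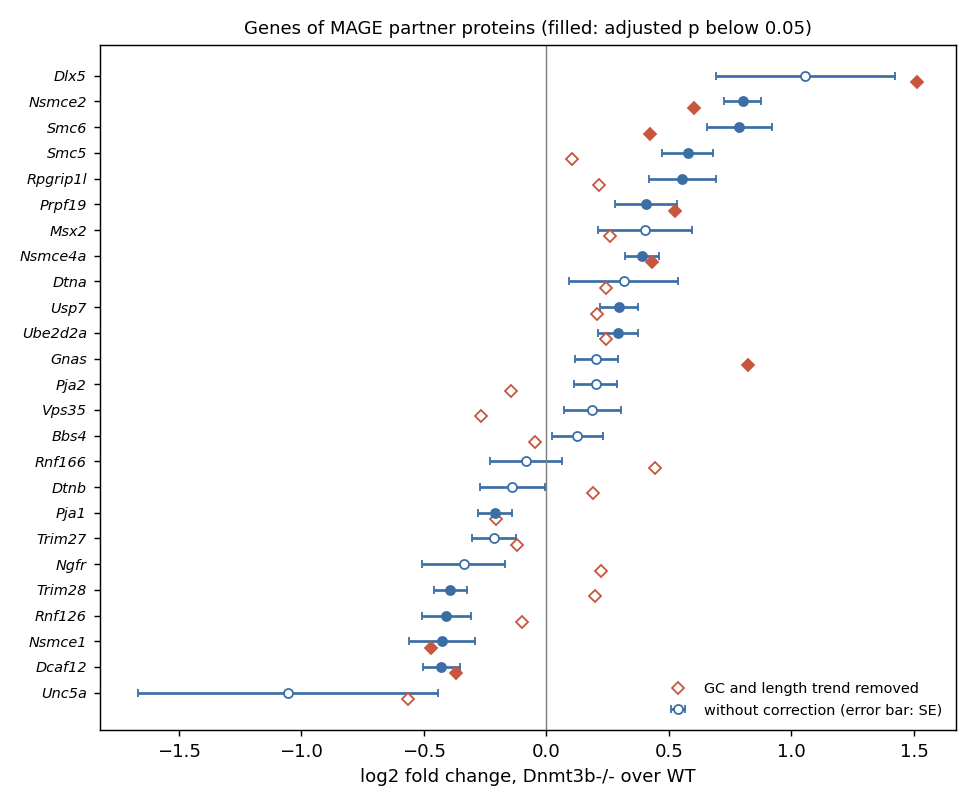
Log2 fold change (Dnmt3b-/- over WT) for the 25 tested partner genes, without correction (blue circles, error bars SE) and with the GC and length trend removed (red diamonds); filled symbols have an adjusted p below 0.05. Nsmce2 and Smc6 are at 0.80 and 0.79 without correction, and Trim28 moves from -0.39 to 0.20.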

How the data were processed

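The authors made RNA-Seq libraries of individual embryos from ribosomal RNA-depleted total RNA with a stranded kit. Per the labels, reads were aligned to mm10 with TopHat2 2.0.12 and counted on RefSeq genes with HTSeq 0.6.0, and raw counts were deposited for 24065 genes. The strand setting, the handling of reads with several matches and the RefSeq release are not given in the sources used here. The deposited normalized counts, fold changes and p-values came from DESeq2 1.4.5 and were not used, and the 21 methylation libraries of the series were not analysed here.

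The counts were scaled with TMM and tested between the genotypes in edgeR 4.0.16 (quasi-likelihood, R 4.3.3) without covariates. Genes averaging 10 or more counts were tested, 15114 in all, with Benjamini-Hochberg adjustment over them. Errors of log2 fold changes are the change divided by the square root of F. Normalized counts are counts divided by the scaled library size, relative to the mean, and FPKM values use RefSeq exon lengths (GRCm38.p6). Limits of 3 counts, like all depth limits here, cover the error of counting only, because PCR copies were not removed by molecular identifiers. P-values measure the spread between these embryos.

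The named genes are the 8 Mage genes, other family members, 28 partner genes, neighbours in the annotation, checks of genotype and tissue, and the 5 genes most like Mageb4. The genes and lists were chosen with earlier results of these data known. Alternatives were no minimum count, an average of 50 counts, DESeq2 size factors, total counts, DESeq2 1.42.0, a replicate block, the Xist level as a covariate, removal of a spline (5 degrees of freedom each) on GC content and log2 length, and each embryo left out in turn. Same-numbered embryos did not deviate together (correlations of -0.05, -0.15 and -0.01), and no label ties the numbers to litters.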

Additional observations from a re-analysis of the deposited data

How the results depend on the processing

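Maged1, Mageh1 and Tro kept their direction and an adjusted p below 0.05 (edgeR, or DESeq2 in its own setting) in all 14 alternatives. Mageb4 did so in the 12 in which it was tested, and in the others it fell below the minimum count. Its counts came from the Dnmt3b-/- embryos alone, so it was tested only where these were high enough. The 12 settings are therefore not separate support for its rise. The number of type I genes called higher was 1, and 0 with a mean of at least 50 counts, which Mageb4 does not reach. It ranged from 0 to 2 with each embryo left out, being 0 without Dnmt3b-/- embryo 1 and 2 without WT embryo 2. WT embryo 2 was the only WT embryo with low Xist, so Xist also differed between the groups without it. The type I median log2 fold change, over Mageb4 and Mageb16, was 4.08 (1.68 with Mageb4 at its lower bound). It was 0.43 with a mean of at least 50 counts, where Mageb16 alone was tested. With each embryo left out it ranged from 0.55 to 4.76. Mageb4 entered the test through the Dnmt3b-/- embryos alone and Mageb18 was not tested, so this median does not describe the type I class. The type II median of -0.27 became -0.10 with the GC and length trend removed and -0.35 with total counts as scaling, and ranged from -0.49 to -0.16 with each embryo left out. Total counts moved the median of all tested genes from -0.03 to -0.11 and the share of lower genes among those called from 64.1% to 74.3%, while the GC and length correction brought it to 31.8%, with 143 genes called lower in place of 571. The log2 fold change of Mageb16 ranged from -0.028 (without WT embryo 3) to 1.76 (without WT embryo 2) around 0.43. The direction also turned, with the GC and length correction, for Maged2 (0.057) and Magel2 (0.22), neither of which passed the test, and the causes were not tested. With the replicate number as a block, 265 genes were called higher and 516 lower, against 320 and 571, and no call of a Mage gene changed. The partner genes Pja1, Nsmce1 and Ube2d2a then had no adjusted p below 0.05 (edgeR adjusted p = 0.0941, 0.0866 and 0.0616). The fits with no minimum count and without Dnmt3b-/- embryo 1, and the Mageb4 bound without each Dnmt3b-/- embryo, were chosen after seeing the data. Depth limits Mageb4 and Mageb18, which lay at 0 counts in WT embryos.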
